A study of Homo sapiens with 12 samples.

Results

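The genes described here are 8 host genes of small nucleolar RNAs (snoRNAs): SNHG1, SNHG5, SNHG7, SNHG8, SNHG12, SNHG15, GAS5 and ZFAS1. They were read by every array probe annotated to one of these symbols, which gave 13 of the 47321 probes analysed, and they are 8 of the 11305 genes with a kept probe. A probe was kept for tests when its detection p, which compares it with negative control beads, was under 0.01 on at least 2 of the 12 arrays. By that rule 12 of the 13 member probes were kept, among 19357 kept probes in all. A probe of ZFAS1 (ILMN_3233010) was undetected on all 12 arrays, and the GAS5 probe was detected only on treated arrays.

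RNA came from 3 human multiple myeloma cell lines, with 2 arrays for each of 6 groups. MM.1S, labelled p53 wild type, received 20 µM PRIMA-1Met or DMSO. U266, labelled p53 mutant, received 40 µM PRIMA-1Met or DMSO. The third line, 8226R5, labelled p53 null, also received 40 µM PRIMA-1Met or DMSO. Its sample titles spell the line 8226R5 and another label spells it 8266R5. All cells were harvested after 8 h, and the doses are read in the order in which the labels list the lines. PRIMA-1Met, also known as APR-246, is a compound developed to restore the folding of mutant p53, and its product methylene quinuclidinone reacts with thiols. Each line has its own p53 status and MM.1S its own dose, and these cannot be told apart from the line itself. The labels say that wells were seeded in duplicate, so the p-values measure the spread between such wells, which may be technical.

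A snoRNA host gene carries one or more snoRNAs inside its introns. Splicing releases the introns, from which the snoRNAs are trimmed and packed with proteins such as fibrillarin or dyskerin to guide methylation or pseudouridylation of ribosomal RNA. The spliced host RNA of this family codes for little or no protein, and several of these RNAs are known to be degraded by nonsense-mediated decay as they are translated. They therefore build up when translation stops, and GAS5, growth arrest specific 5, was named for its rise in arrested cells. Many host genes start with a C followed by further pyrimidines, the 5′ terminal oligopyrimidine (5′ TOP) motif that they share with ribosomal protein genes.

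Promoter sequence was at hand in the RefSeq table (GRCh38.p14) for 7 of the 8 genes, SNHG15 being without an entry. The 5 windows below show the start sites of the genes with the largest rise, of a gene whose probes disagreed and of the gene that fell. Each runs 5′ to 3′ on the transcribed strand from 40 bases before the start through the first 20 transcribed bases. Capitals mark TATAA before the start and, from the first transcribed base on, an unbroken run of C or T that begins with C.
ZFAS1 (chr20:49278602-49278661, plus strand): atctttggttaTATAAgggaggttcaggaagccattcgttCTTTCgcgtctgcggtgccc
SNHG7 (chr9:136728165-136728224, minus strand): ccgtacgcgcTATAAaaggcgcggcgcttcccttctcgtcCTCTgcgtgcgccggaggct
SNHG12 (chr1:28581854-28581913, minus strand): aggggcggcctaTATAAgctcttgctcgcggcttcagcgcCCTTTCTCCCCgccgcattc
SNHG5 (chr6:85678714-85678773, minus strand): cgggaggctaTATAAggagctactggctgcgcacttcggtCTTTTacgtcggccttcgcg
SNHG1 (chr11:62855866-62855925, minus strand): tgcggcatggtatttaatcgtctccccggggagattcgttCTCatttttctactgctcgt

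TATAA, searched on both strands from 40 to 16 bases before the start, lay in 5 of the 7 promoters (those of SNHG5, SNHG7, SNHG8, SNHG12 and ZFAS1), and in 4.72% of 35116 promoters in the table. The first transcribed base was C in 6 of the 7 (GAS5, at the start scanned, is the exception), against 14.7% of all promoters. A first C with a run of at least 5 pyrimidines on the transcribed strand was found in 3 of the 7 (SNHG5, SNHG12 and ZFAS1), against 4.07% of all. The palindrome CACGTG stood in the 300-base promoter of SNHG7 alone of the 7, against 7.26% of all promoters. None of these motifs overlapped another in the printed windows. A match is a description of the letters and says nothing of factor binding. SNHG1, whose probe fell in MM.1S, and GAS5, whose probe rose there, both had neither TATAA nor a run of 5 pyrimidines at the start scanned. A single start per gene was scanned. For GAS5, a gene with 50 RefSeq transcripts, it was the outermost start, and its other starts were not examined.

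The arrays differed in brightness along with treatment. The 90th percentile of signal was 212 and 215 intensity units on the treated MM.1S arrays and 836 and 789 on the MM.1S controls. In U266 it was 549 and 522 under PRIMA-1Met and 904 and 906 in controls, whereas in 8226R5 it was 870.0 and 865 under PRIMA-1Met and 697 and 705 in controls. Between 11815 and 16025 probes were detected on an array, with the lowest numbers on the treated MM.1S arrays. The authors' values gave every array the same distribution, so a change on that scale is relative to the other probes of the array. Treated MM.1S arrays also differed most from each other (SD of the replicate difference 0.377 log2 units, against 0.175 to 0.230 in the other 5 groups). Of 7 plasma cell markers, MM.1S had all 7 detected, U266 had 6 (not CD38) and 8226R5 had 4 (not TNFRSF17, IRF4 or CD38). In 8226R5 the T cell markers CD3D and CD3E and the epithelial markers EPCAM and KRT18 were detected in both treated and control cells. HBB was detected in both groups of MM.1S, ALB in all 6 groups, COL1A1 in treated U266 and in both groups of 8226R5, and CD14 in treated U266 and treated 8226R5. No B cell marker was detected in any group. The part of these markers in the results below was not tested.

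In MM.1S, 10 of the 12 member probes were higher under PRIMA-1Met at a limma adjusted p under 0.05, where 25.9% of all 19357 probes were. Only SNHG1 was lower, where 46.0% of all probes were, so that 11 of 12 passed where 71.9% of all probes did. The rises were largest for 1 of the SNHG7 probes, ZFAS1, SNHG12, GAS5 and 1 of the SNHG5 probes, and these 5 probes passed the 2-fold criterion that the study states. GAS5 is among the 10 and the 5 although it was kept only through treated arrays, so its part in these counts only describes. Rises of at least 2-fold were seen in 12.1% of all probes and falls of that size in 17.8%, and no member fell by that much. Of all calls in MM.1S 36.1% were rises on the normalized values, 11.1% with median scaling and 8.6% without scaling. The median change of the 12 probes was 0.76 on the log2 scale, against -0.25 for all kept probes. These directions are those of the normalized values: without any scaling between arrays the median of all probes was -1.29, and 3 member probes rose and 7 fell. Relative to the median of all probes, 11 of 12 member probes lay above it and SNHG1 below it on the authors' values, with neqc normalization of the signals and with unscaled signals. The median excess of the 12 over it was 1.01 log2 units on the authors' values and 0.59 unscaled. Unscaled, the lead probes of SNHG15 (-1.25) and SNHG7 (-1.22) lay close to the -1.29 of all probes.

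ZFAS1, an antisense neighbour of ZNFX1 that hosts SNORD12 and its 2 relatives, lies at chr20:49278178-49289260. Its kept probe read 13.12 and 13.14 log2 units in treated MM.1S cells and 11.03 and 11.10 in MM.1S controls. The groups were well apart, with a change of 2.06 ± 0.087 (SE, n = 2 each, limma adjusted p = 5.08e-08). Here and below, the SE and p rest on a spread pooled over the 6 groups, and treated MM.1S arrays varied more than the others. In unscaled signal the same probe read 5315 and 5482 intensity units in treated cells and 2703 and 2653 in controls, so it was brighter on the dim arrays too. In U266 it read 11.81 and 12.03 in treated cells and 11.86 and 11.90 in controls, and the groups overlapped. In 8226R5 it read 13.02 and 13.03 in treated cells and 13.001 and 12.93 in controls, a difference of 0.06 that did not pass the test. On the normalized scale the MM.1S controls held the lowest ZFAS1 level of the 6 groups and treated MM.1S the highest. In unscaled signal treated MM.1S lay below treated 8226R5 (10875 and 11071 intensity units) and 8226R5 controls (8628 and 8254).

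SNHG7 (chr9:136724594-136728184) hosts SNORA17A and SNORA17B and was read by 3 probes that differed widely. Probe ILMN_3233205 read 12.46 and 12.43 log2 units in treated MM.1S cells and 8.19 and 8.17 in MM.1S controls, a change of 4.26 ± 0.111 (limma adjusted p = 2.68e-09). Its signal was 2772 and 2681 intensity units in treated cells and 329 and 304 in controls. Only this SNHG7 probe was brighter in treated MM.1S cells before scaling. The lead probe, the one with the highest mean (ILMN_3227023), read 11.09 and 11.13 in treated MM.1S cells and 10.74 and 10.59 in controls, a change of 0.45 ± 0.091. A further probe (ILMN_3233229) changed by 0.79 ± 0.117. Unscaled, the lead probe and ILMN_3233229 fell by 1.22 and 1.01 log2 units. The lead probe and ILMN_3233205 are annotated to the same RefSeq transcript, and the probes' positions on it are not given in the sources used here.

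**Figure D1:**
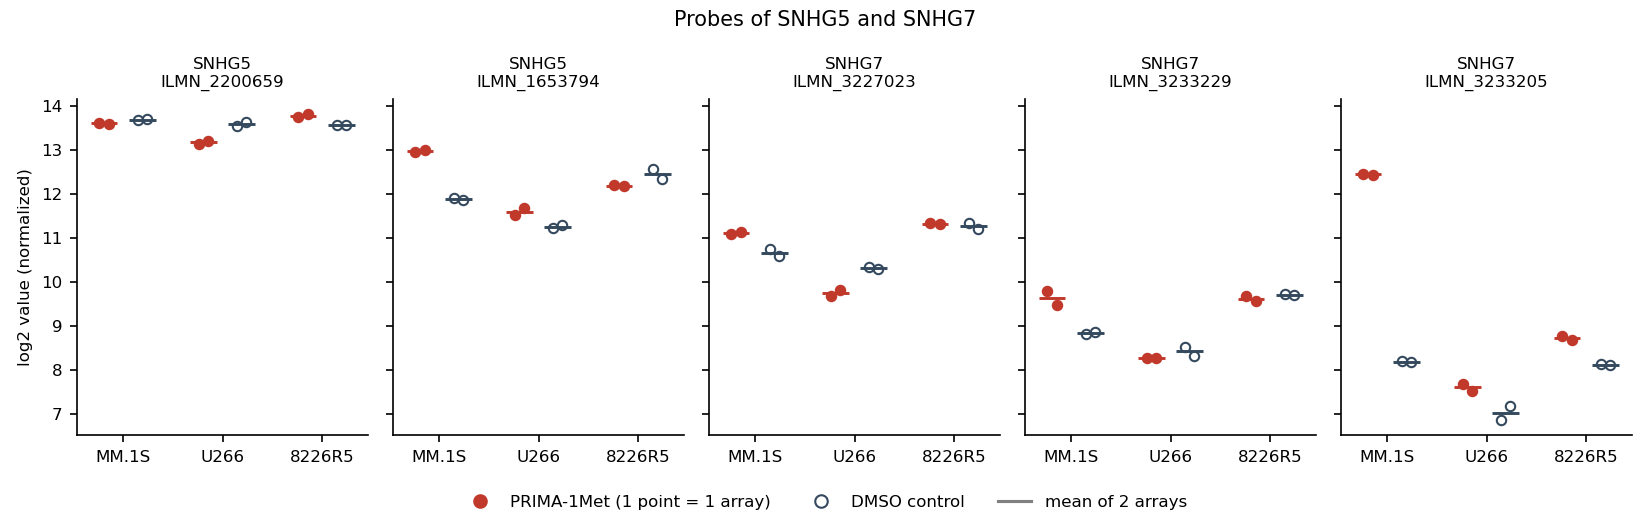
Log2 values (authors' normalized scale, vertical axis) of the 2 SNHG5 and 3 SNHG7 probes on each array, by line, with PRIMA-1Met as filled points left of the DMSO control as open points and a bar at the mean of 2 arrays. SNHG7 probe ILMN_3233205 stands at 12.46 and 12.43 in treated MM.1S cells against 8.19 and 8.17 in their controls, while the other SNHG7 probes changed by 0.45 and 0.79 on this scale and by -1.22 and -1.01 without scaling.

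SNHG5 (chr6:85677007-85678733), the host of U50 snoRNAs, had 2 probes that also disagreed. Its brighter probe (ILMN_2200659) read 13.62 and 13.59 log2 units in treated MM.1S cells and 13.68 and 13.69 in controls. These values differed by -0.08 ± 0.075 and did not pass the test (limma adjusted p = 0.354). The second probe (ILMN_1653794) read 12.96 and 13.01 in treated MM.1S cells and 11.90 and 11.85 in controls, a change of 1.11 ± 0.093 (limma adjusted p = 4.27e-06). Unscaled, the second probe read 4544 and 4725 intensity units in treated cells and 4839 and 4405 in controls, and these ranges overlapped. The signal of the brighter probe was 9047 and 8725 in treated cells and 15369 and 14849 in controls. Both probes are annotated to the same transcript, the only one that RefSeq lists for SNHG5.

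SNHG12 (chr1:28578538-28582983), which hosts SNORA61, SNORA16A, SNORD99 and SNORA44, read 9.55 and 9.37 log2 units in treated MM.1S cells and 7.97 and 7.83 in controls. The change was 1.56 ± 0.130 (limma adjusted p = 4.07e-06), with no overlap. In unscaled signal the treated arrays gave 247 and 215 intensity units and the controls 270.0 and 224, so that the ranges overlapped.

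GAS5 (chr1:173863901-173869045), which hosts 10 listed snoRNAs and is known for binding the glucocorticoid receptor, was the dimmest member. It read 7.76 and 7.38 log2 units in treated MM.1S cells, both detected, and 6.41 and 5.86 in MM.1S controls, neither detected. With the controls taken at the dimmest detected level, treated MM.1S cells were at least 2.13-fold higher on the normalized scale (limma adjusted p = 9.39e-05 for the measured change of 1.44 ± 0.192). Without scaling the measured GAS5 change was 0.64 log2 units (limma adjusted p = 0.0301), which is under that bound. GAS5 was kept only because treated MM.1S and 8226R5 arrays detected it, so a difference was built into its passing. In U266 it was undetected in treated and control cells alike. In 8226R5 it was detected on both treated arrays (6.58 and 6.50) and on neither control (6.09 and 6.05), a change of 0.47 ± 0.192 that did not pass the test (limma adjusted p = 0.170).

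SNHG8 (chr4:118278762-118279823), the host of SNORA24, read 12.29 and 12.39 log2 units in treated MM.1S cells and 11.59 and 11.63 in controls, a change of 0.73 ± 0.085. SNHG15 (chr7:44983023-44986696), a short-lived RNA that hosts SNORA9, changed by 0.56 ± 0.099 and 0.73 ± 0.091 by its 2 probes. All 3 probes passed the test on the normalized values, and each fell by 0.63 to 1.25 log2 units in unscaled signal. SNHG1 (chr11:62851978-62855885), the host of 8 listed snoRNAs, read 11.78 and 11.80 in treated MM.1S cells and 12.35 and 12.36 in controls. It fell by 0.56 ± 0.073 log2 units (limma adjusted p = 8.45e-05). In unscaled signal it was 1511 and 1549 intensity units in treated cells and 6733 and 6353 in controls. In these bulk samples, fewer living cells and less of an RNA per cell cannot be told apart. With any 1 of the 4 MM.1S arrays left out, the same number of member probes passed, 10 higher and 1 lower.

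**Figure D2:**
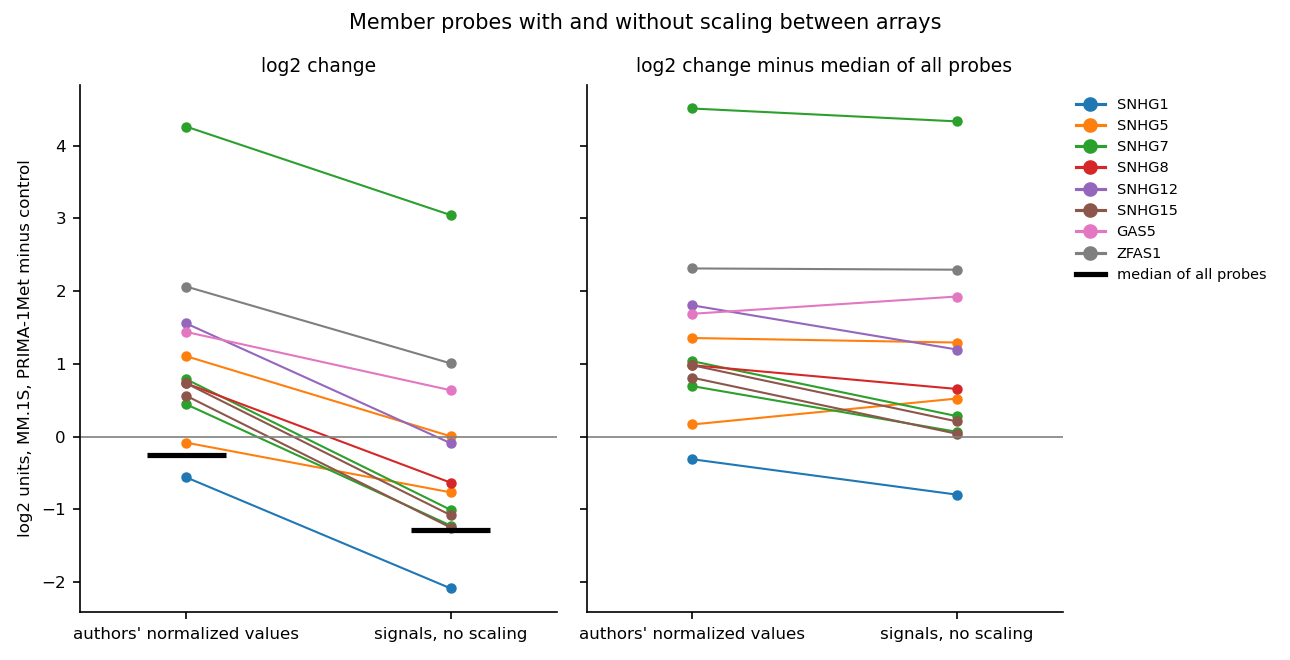
Change of each of the 12 member probes in MM.1S (vertical axis, log2 units, PRIMA-1Met minus control) with the authors' normalized values and with unscaled signals, as measured on the left and minus the median of all probes on the right. The median of all probes (black bars) moved from -0.25 on the normalized scale to -1.29 on the unscaled one, and SNHG1 was the only member below it on both.

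In U266 the host genes split: 3 member probes were higher and 4 lower under PRIMA-1Met, so 7 of 12 passed the test where 26.0% of all probes did (2328 probes higher and 2709 lower). None of the 12 changed by 2-fold, where 0.997% of all probes rose and 1.39% fell by that much, and the median change was -0.20, against -0.01 for all kept probes. SNHG1 read 11.10 and 11.05 log2 units in treated U266 cells and 11.76 and 11.87 in controls, and fell by 0.73 ± 0.073 (limma adjusted p = 0.000182). The SNHG7 lead probe fell by 0.56 ± 0.091, with 9.68 and 9.82 in treated U266 cells and 10.33 and 10.29 in controls. The SNHG15 lead probe fell by 0.51 ± 0.099, while its second probe differed by -0.25 ± 0.091 (limma adjusted p = 0.0735). The probes of SNHG5 moved apart: the brighter one fell by 0.42 ± 0.075 and the other rose by 0.33 ± 0.093.

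SNHG7 probe ILMN_3233205 rose in U266 by 0.59 ± 0.111, with 7.68 and 7.52 log2 units in treated cells and 6.85 and 7.18 in controls. SNHG8 read 10.69 and 10.82 in treated U266 cells and 10.46 and 10.52 in controls, a rise of 0.26 ± 0.085 that only just passed (limma adjusted p = 0.0499). SNHG12, ZFAS1, GAS5, SNHG7 probe ILMN_3233229 and the second SNHG15 probe did not pass the test in U266. The rises of SNHG8 and of the second SNHG5 probe did not hold with single arrays left out. SNHG8 lost its call without any 1 of the 4 U266 arrays (changes of 0.20 to 0.33), and the SNHG5 probe lost its call without either control or without treated replicate 2 (changes of 0.26 to 0.36). Without scaling, no member probe passed as higher in U266 and 10 passed as lower, while the median of all probes was -0.60. Rises made up 46.2% of all calls in U266 on the normalized values, 5.7% with median scaling and 2.7% without scaling.

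In 8226R5, 4 of 12 member probes passed the test, where 9.09% of all probes did, with 1 higher (5.02% of all probes) and 3 lower (4.08% of all). SNHG15 read 12.01 and 12.09 log2 units in treated 8226R5 cells and 12.82 and 12.78 in controls by its lead probe. It fell by 0.75 ± 0.099 (limma adjusted p = 0.00277), and its second probe fell by 0.75 ± 0.091 (limma adjusted p = 0.0018). The fall was also seen in unscaled signal, with 5816 and 6113 intensity units in treated cells and 7621 and 7452 in controls by the lead probe. SNHG15 and SNHG8 were the genes of the 8 with all their probes called lower in 8226R5.

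SNHG8 read 9.99 and 9.85 log2 units in treated 8226R5 cells and 10.31 and 10.31 in controls, and fell by 0.39 ± 0.085 (limma adjusted p = 0.0247). SNHG7 probe ILMN_3233205 read 8.77 and 8.67 in treated cells and 8.14 and 8.10 in controls, and rose by 0.60 ± 0.111 (limma adjusted p = 0.0114). It was the one member probe called higher in all 3 lines. Both of these calls were lost when any 1 of the 4 arrays of 8226R5 was left out (limma adjusted p between 0.0564 and 0.165), leaving the 2 SNHG15 probes. SNHG1 differed by 0.03, the SNHG5 probes by 0.21 and -0.27, SNHG12 by -0.29, the SNHG7 lead probe by 0.06 and ZFAS1 by 0.06, and none of these passed. The median change of the 12 probes was -0.03, against 0.00 for all kept probes. No member probe changed by 2-fold in 8226R5, where 0.253% of all probes rose and 0.279% fell by that much. Rises made up 55.2% of all calls in 8226R5 on the normalized values, 88.2% with median scaling and 91.9% without scaling, and without scaling 6 of 8 called member probes were higher.

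**Figure D3:**
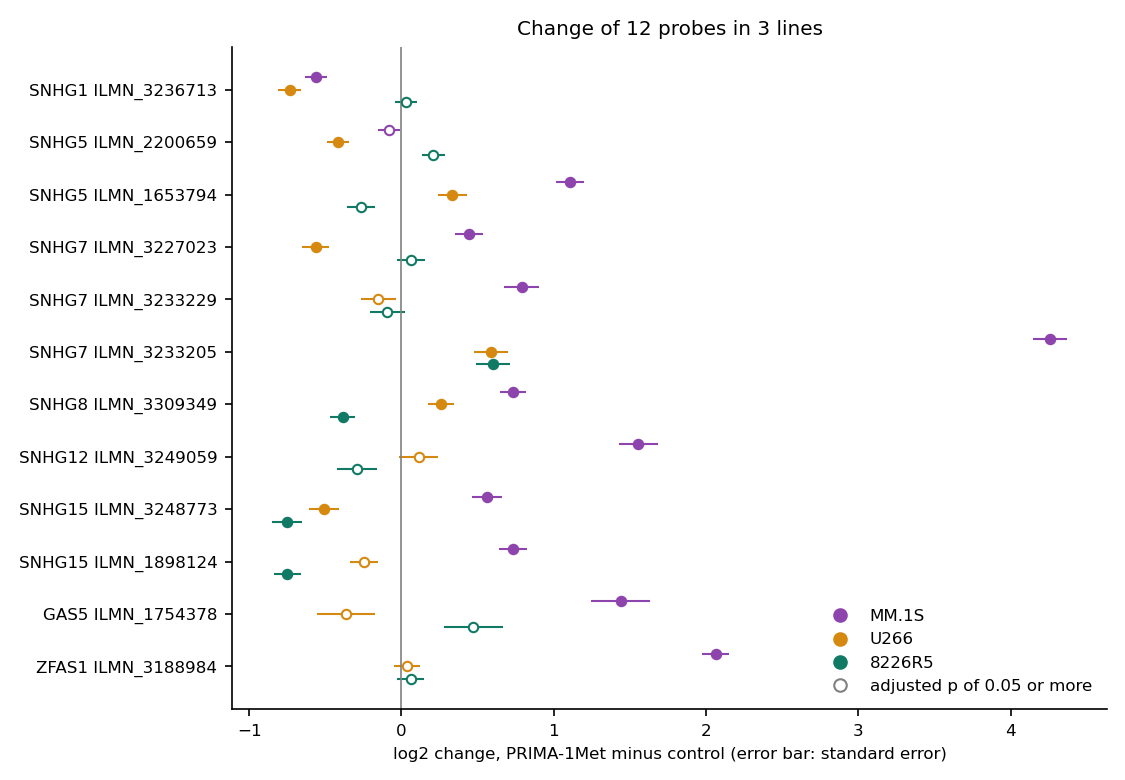
Log2 change (horizontal axis, PRIMA-1Met minus control, authors' normalized values) of the 12 kept member probes in MM.1S, U266 and 8226R5, with standard errors as bars and open points where the limma adjusted p was 0.05 or more. MM.1S lies to the right of both other lines for 10 of the 12 probes, the exceptions being SNHG1 and SNHG5 probe ILMN_2200659.

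The difference between the lines' responses was tested directly. The response was higher in MM.1S than in U266 for 11 of the 12 member probes, where 59.4% of all probes differed, 22.6% higher and 36.8% lower. The differences ranged from 0.34 for the brighter SNHG5 probe to 3.68 for SNHG7 probe ILMN_3233205, and SNHG1 was the exception at 0.18 ± 0.104 (limma adjusted p = 0.174). Between MM.1S and 8226R5 all 12 probes differed, where 63.5% of all probes did (23.7% higher and 39.8% lower). Of these 10 were higher in MM.1S, and SNHG1 (-0.59) and the brighter SNHG5 probe (-0.29) were lower. GAS5 is among the probes counted as higher in both comparisons, but its controls and treated U266 were undetected and it was kept only through treated arrays, so its differences rest on values below detection.

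ZFAS1 gave differences of 2.03 ± 0.123 between MM.1S and U266 and 2.00 ± 0.123 between MM.1S and 8226R5. SNHG12 gave 1.44 and 1.85 ± 0.184. The call on the brighter SNHG5 probe between MM.1S and 8226R5 was lost without either control array of MM.1S, without treated MM.1S replicate 2 or without any array of 8226R5 (-0.25 to -0.33). The call on the SNHG7 lead probe in the same comparison (0.38) was lost without MM.1S control replicate 2, treated MM.1S replicate 2, 8226R5 control replicate 1 or either treated 8226R5 array (0.31 to 0.40). Between MM.1S and U266 the brighter SNHG5 probe was lost without MM.1S control replicate 1, U266 control replicate 2 or treated U266 replicate 1 (0.29 to 0.33).

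U266 and 8226R5, which shared the 40 µM dose, differed in 6 of 12 member probes, where 19.3% of all probes did (8.49% higher and 10.8% lower). The response was lower in U266 for SNHG1 (-0.77 ± 0.104), the brighter SNHG5 probe (-0.63 ± 0.107) and the SNHG7 lead probe (-0.63 ± 0.128). It was higher in U266 for the second SNHG5 probe (0.60), SNHG8 (0.65) and the second SNHG15 probe (0.50). The call on the second SNHG15 probe was lost without either U266 control, treated U266 replicate 2, 8226R5 control replicate 2 or either treated 8226R5 array (0.41 to 0.53), and that on the second SNHG5 probe without U266 control replicate 1 (0.57). SNHG5 thus responded in opposite order between these lines by its 2 probes. With median scaling or no scaling, 4 of the 12 differences between MM.1S and U266 passed. Among them was SNHG1, which turned to -0.80 and -0.81. The differences of SNHG8, SNHG7 probe ILMN_3233229 and both SNHG15 probes turned negative between MM.1S and each other line. Those against U266 did not pass the test then. Without scaling, those of the second SNHG5 probe, the SNHG7 lead probe, SNHG12 and GAS5 also turned negative between MM.1S and 8226R5. Of these only the SNHG7 lead probe passed. The comparisons between lines share arrays with each other and with the comparisons within lines.

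**Figure D4:**
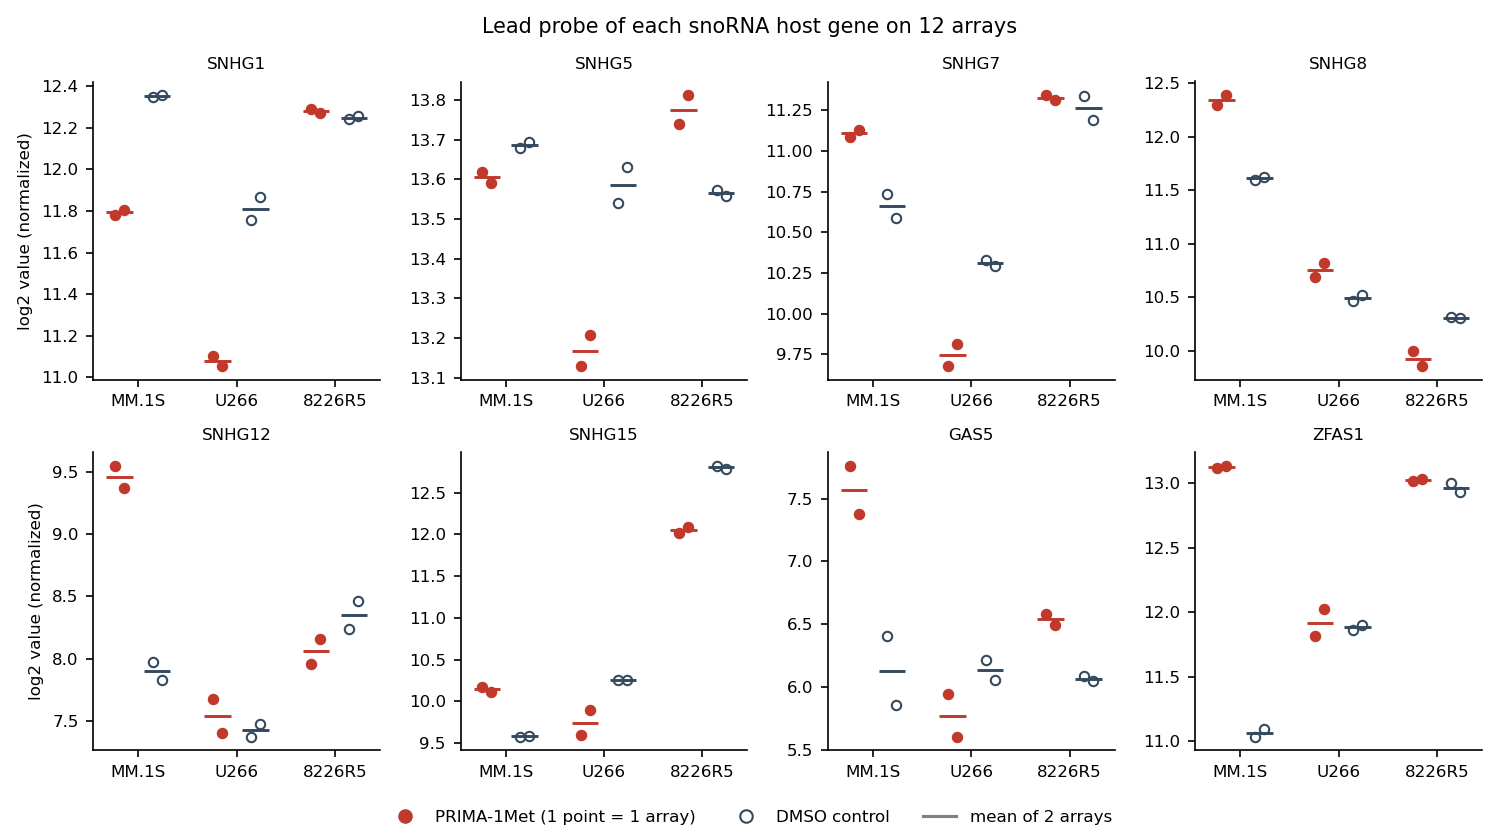
Log2 value (authors' normalized scale) of the lead probe of each of the 8 genes on all 12 arrays, by line, PRIMA-1Met (filled) left of the DMSO control (open), with a bar at the mean of 2 arrays. The vertical scale differs between genes. ZFAS1 and SNHG12 were highest in treated MM.1S cells, and SNHG15 was highest in 8226R5 controls.

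The host genes also differed between the lines before treatment. SNHG15 was the member with the widest range over the 6 groups among lead probes, with 9.58 ± 0.011 log2 units in MM.1S controls (SD, n = 2), 10.25 in U266 controls and 12.80 ± 0.029 in 8226R5 controls. The difference was -3.22 ± 0.099 log2 units between MM.1S and 8226R5 (SE, limma adjusted p = 5.57e-09) and -2.55 ± 0.099 between U266 and 8226R5. The second SNHG15 probe gave differences of -3.19 and -2.54. The fall of SNHG15 under PRIMA-1Met in 8226R5 left it above every group of the other lines.

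Between controls of MM.1S and U266, 10 of 12 member probes differed, where 57.1% of all probes did (29.2% higher and 27.9% lower), 7 of them higher in MM.1S. Between controls of MM.1S and 8226R5, 8 of 12 differed, where 60.5% of all probes did (30.9% higher and 29.6% lower), 7 of them lower in MM.1S. Between controls of U266 and 8226R5, 9 of 12 differed, where 63.5% of all probes did (32.1% higher and 31.4% lower), each lower in U266. Among untreated cells SNHG8 was highest in MM.1S, by 1.12 ± 0.085 over U266 and 1.30 ± 0.085 over 8226R5. ZFAS1 was lowest in MM.1S, by -0.82 ± 0.087 from U266 and -1.90 ± 0.087 from 8226R5. The brighter SNHG5 probe differed between no pair of control groups (0.02 to 0.12), and it had the smallest range over the 6 groups, 0.61 log2 units. With 1 control array left out, the counts of differing probes were 8 to 9 between MM.1S and U266, 7 to 8 between MM.1S and 8226R5 and 9 between U266 and 8226R5. The calls lost were those of SNHG12 between MM.1S and either other line (0.41 and 0.42 against U266, -0.38 and -0.34 against 8226R5) and of the SNHG7 lead probe (0.27) and ILMN_3233229 (0.32 and 0.40) between MM.1S and U266.

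The order of the 6 groups on the normalized values was not the same for the 8 genes. By lead probe, U266 under PRIMA-1Met was the lowest group for SNHG1, SNHG5 and SNHG7, and treated MM.1S the highest for SNHG8, SNHG12, GAS5 and ZFAS1. By SNHG7 probe ILMN_3233205, U266 controls were the lowest group. For SNHG1, treated MM.1S and U266 controls overlapped (11.79 and 11.81 log2 units on average). For ZFAS1, treated U266 and U266 controls overlapped. For GAS5, the controls of the 3 lines and treated U266 were undetected and have no order. The mean of the 8 lead probes, each standardized over the 12 arrays, was 0.863 and 0.762 SD units in treated MM.1S and -0.054 and -0.192 in its controls. In U266 it was -1.107 and -1.076 in treated cells and -0.497 and -0.416 in controls. In 8226R5 it was 0.445 and 0.486 in treated cells and 0.403 and 0.381 in controls. GAS5 enters this mean with its undetected values and was kept only through treated arrays, so the mean describes only.

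The snoRNAs carried in these introns were read with the same arrays. Of 32 snoRNA symbols listed for the 8 genes, 27 had a probe and 15 were kept. Of the 15, 5 were detected on treated arrays only, so the kept ones had in part passed because they were high there, and their counts only describe. In MM.1S all 15 were higher on the normalized values, where 25.9% of all probes were. With unscaled signals 8 were higher and 5 lower. Both probes of the snoRNAs of SNHG5 were below the filter. The labelling kit used for these arrays primes on poly(A), which mature snoRNAs lack, and which RNA these probes read was not tested.

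SNORD12C, from ZFAS1, read 11.33 and 11.39 log2 units in treated MM.1S cells and 6.17 and 6.33 in controls, of which neither was detected. Treated cells were at least 29.4-fold higher on the normalized scale (limma adjusted p = 4.99e-10 for the measured change of 5.11 ± 0.087). SNORD99, from SNHG12, read 10.91 and 11.03 in treated MM.1S cells and 7.61 and 7.56 in controls, a change of 3.39 ± 0.112. SNHG1 and its snoRNAs parted in MM.1S: the host fell by 0.56, and SNORD25, SNORD30, SNORD31 and SNORD22 rose by 1.22, 0.90, 0.87 and 0.55. These directions hold for the normalized values.

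In U266, 5 of the 15 kept snoRNA probes were higher and 1 lower, where 2328 of all 19357 probes were higher and 2709 lower. Of these 5, SNORD12 and SNORD74 were undetected in both U266 groups and SNORA16A in U266 controls. This count thus rests in part on values below detection. SNORD12C was 7.80 and 7.86 log2 units in treated U266 cells and 6.26 and 6.42 in controls, a rise of 1.49 ± 0.087 (limma adjusted p = 7.65e-06), beside 0.04 for its host ZFAS1. SNORD31, from SNHG1, fell by 0.95 ± 0.173, beside a fall of 0.73 for the host. In 8226R5, 4 were higher and 2 lower, where 5.02% and 4.08% of all probes were. The probes called higher there, SNORA9, SNORD12, SNORA17A and SNORA17B, were undetected in 8226R5 controls. Each was kept only through treated arrays, so this count only describes. SNORA24, from SNHG8, read 7.25 and 7.24 in treated 8226R5 cells and 8.57 and 8.74 in controls, a fall of 1.41 ± 0.100 (limma adjusted p = 0.000134) beside a fall of 0.39 for SNHG8. SNORA9 rose by 0.70 ± 0.091 in 8226R5 (undetected in controls, at least 1.36-fold) while its host SNHG15 fell by 0.75. SNORD12, from ZFAS1, rose by 1.49 ± 0.169 in 8226R5, at least 1.99-fold, beside 0.06 for ZFAS1.

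**Figure D5:**
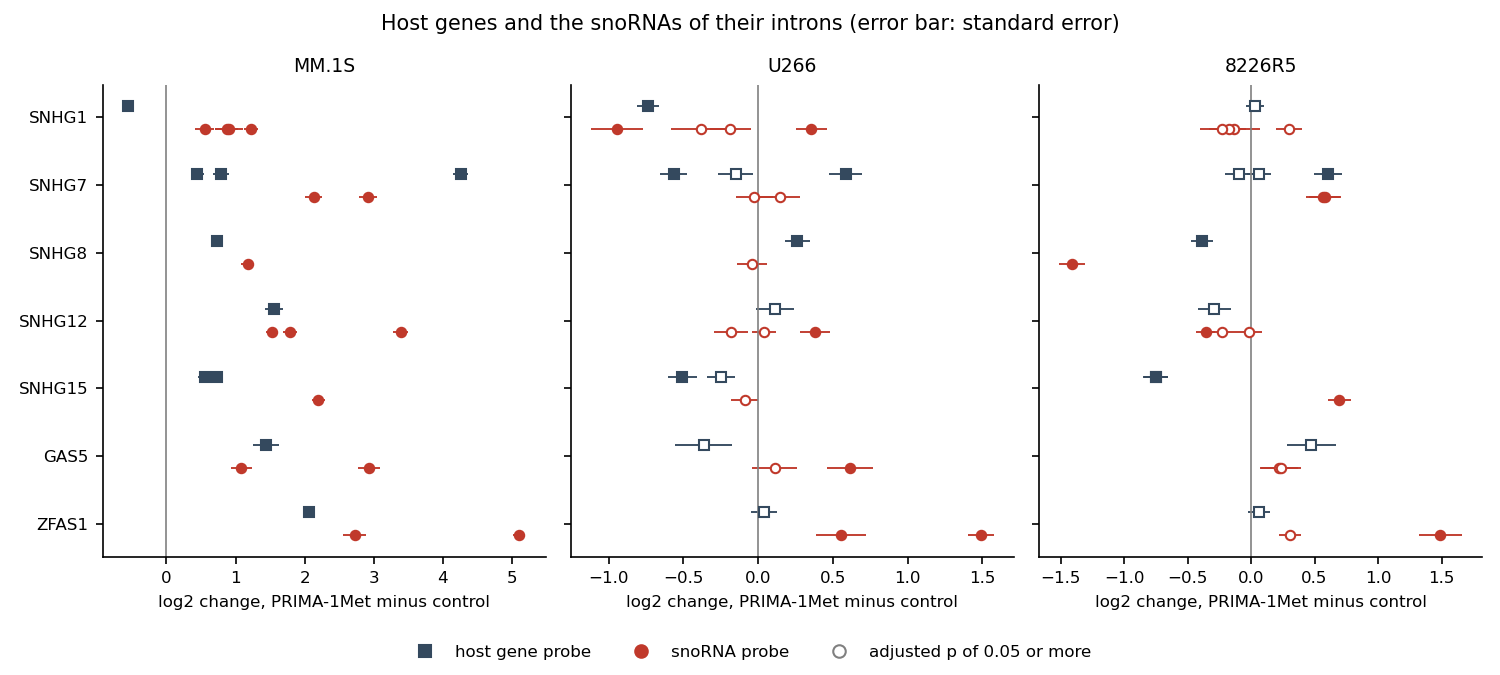
Log2 change (horizontal axis, PRIMA-1Met minus control, authors' normalized values, 1 scale per line) of host gene probes (squares) and of kept probes of the snoRNAs in their introns (circles), with standard errors as bars and open symbols where the limma adjusted p was 0.05 or more. In MM.1S the 4 snoRNA probes of SNHG1 lie right of 0 and the host left of it, and in 8226R5 SNORA24 lies at -1.41 beside SNHG8 at -0.39.

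Other genes of the pathway were counted on 1 lead probe per gene and on the normalized values. Without scaling the median of all genes was -1.56 in MM.1S, -0.62 in U266 and 0.22 in 8226R5, and most counts of rises below then turned to falls in MM.1S and U266. In 8226R5 more genes then passed as higher: 12 of the 20 further host genes, 9 of 17 snoRNP proteins, 9 of 17 decay factors and 11 of 20 decay targets. In MM.1S, where 24.1% of 11305 genes were higher and 50.3% lower with a median of -0.34, 20 further snoRNA host genes split into 12 higher and 8 lower, with a median of 0.47. SNHG9, a host gene beside RPS2, rose by 1.70 ± 0.072, PRRC2A by 1.02 ± 0.089 and SNHG11 by 0.98 ± 0.109. Unscaled, 1 of the 20 was higher and 17 lower. In U266 (12.1% of genes higher and 14.5% lower), 6 were higher and 3 lower, among them DANCR, which rose by 0.68 ± 0.107, TCP1, which rose by 0.42 ± 0.079, and IPO7, which fell by 0.77 ± 0.122. In 8226R5 (4.13% higher and 5.04% lower), IPO7, an importin, was the one of the 20 to pass the test, with a rise of 0.97 ± 0.122.

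Genes for snoRNP proteins, which bind snoRNAs or help assemble their particles, were mostly lower in MM.1S at the RNA level. There 13 of 17 were lower and 3 higher, with a median of -0.63, where 50.3% of all genes were lower and 24.1% higher. SHQ1, an assembly factor of H/ACA particles, fell by 1.44 ± 0.080, RUVBL1, a helicase of the assembly machinery, by 1.17 ± 0.097 and NOLC1, a nucleolar chaperone, by 1.16 ± 0.145. In U266, 3 of the 17 were lower and none higher, with NOLC1 down by 0.57 ± 0.145, and in 8226R5 SHQ1 alone passed, with a rise of 0.39 ± 0.080. Of 9 genes that transcribe or process short-lived RNA, 7 were lower in MM.1S and 1 higher. The exonuclease gene XRN2 fell by 1.32 ± 0.087 and MTREX, the exosome's helicase, by 1.17 ± 0.122 in MM.1S. CDK9, the elongation kinase, fell by 1.06 ± 0.159 in U266 and by 0.70 ± 0.159 in 8226R5.

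Of 17 nonsense-mediated decay factors in MM.1S, 11 were lower and 4 higher, with a median of -0.53. MAGOHB, of the exon junction complex, fell by 2.11 ± 0.224, the kinase gene SMG1 by 1.23 ± 0.083, and the nuclease gene SMG6 rose by 1.23 ± 0.146. In U266, 3 were higher (UPF2 by 0.39 ± 0.084) and none lower (0 higher and 15 lower without scaling), and in 8226R5 1 was higher (MAGOH, 0.42 ± 0.083) and 1 lower (NCBP1, -0.33 ± 0.087). Of 20 transcripts known as targets of this decay, 8 were higher and 9 lower in MM.1S, with a median of -0.08. The stress genes DDIT3 and GADD45B rose by 2.61 ± 0.070 and 2.45 ± 0.083 in MM.1S, and DDIT3 rose by 1.18 ± 0.070 in U266. In U266, 4 of the 20 were higher and 6 lower, and in 8226R5 2 were higher and 1 lower.

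Other genes known for a 5′ TOP motif were counted as well. Of 15 such genes outside the ribosome, most of them translation factors, 14 were lower and 1 higher in MM.1S, with a median of -1.07. Of all genes 50.3% were lower there and 24.1% higher. The same counts of the 15 held in MM.1S under all 5 ways of scaling. EIF4B fell by 1.62 ± 0.085 in MM.1S, and the exception EEF1D rose by 1.32 ± 0.090. Of 74 ribosomal protein genes 41 were lower and 7 higher in MM.1S, with a median of -0.30, close to the -0.34 of all genes. Ribosomal protein genes have many near-identical copies, so a probe may read more than 1 of them. In U266, 10 ribosomal protein genes were higher and 2 lower (3 higher and 40 lower without scaling), and 1 of the 15 was higher and 4 lower. In 8226R5, 1 gene of each list was higher and none lower, against 27 of the 74 and 11 of the 15 higher without scaling.

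Among 11 genes of mTORC1, the kinase complex that acts on 5′ TOP translation, and its brakes, 5 were higher and 5 lower in MM.1S. DDIT4, an inhibitor of mTORC1, rose by 3.40 ± 0.070 in MM.1S and by 1.29 ± 0.070 in U266, and TSC2, another brake, rose by 1.71 ± 0.122 in MM.1S. In U266, 2 were higher and none lower, and in 8226R5, 1 was higher (TSC1, 0.60 ± 0.094) and 2 lower (SESN1, -0.54 ± 0.072, and RPTOR, -0.36 ± 0.089). The 5 genes whose lead probe followed the standardized mean of the members most closely over the 12 arrays were NOL8 (Pearson correlation 0.980), DHX37 (0.978), LOC606724 (0.968), C19orf48P (0.966) and RBPJ (0.964). These values describe 12 arrays that fall into 6 groups and share their scaling. The mean they follow includes GAS5, which was undetected on all controls and on treated U266 arrays. Among the members, SNHG7 followed that mean best (0.947) and SNHG8 least (0.234), with each member itself part of the mean.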

How the data were processed

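The members and the gene lists were chosen with earlier results of these data known. Total RNA of 12 samples was hybridised to Illumina HumanHT-12 arrays. One deposited table holds, per the file headers, a signal in intensity units for each probe and array, and beside it the deposited detection p-value. The other deposited table holds log2 values that the authors normalized to 1 distribution over the 12 arrays; the sources do not give its background step. The submitters' processing notes name BeadStudio, lumi and limma. In the signals, 9 arrays were displaced by 1 position from probe 22924 on. Realignment raised the Spearman correlation with the log2 values of those arrays, 0.511 to 0.529 before, to 1, and the last of 47322 probes was left out. Of 47321 probes, 30111 had 1 symbol, 8 several and 17202 none; symbols were updated through RefSeq (GRCh38.p14).

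The log2 values were fitted with limma 3.58.1 in R 4.3.3: 1 mean for each of 6 groups, 19357 kept probes, 6 residual degrees of freedom, two-sided moderated tests and Benjamini-Hochberg adjustment over all kept probes of each comparison. A gene's lead probe is its kept probe with the highest mean. The lists were further snoRNA host genes, snoRNP proteins, nonsense-mediated decay factors and their targets, 5′ TOP genes, ribosomal proteins, mTORC1 genes, short-lived RNA processing, snoRNAs of the members and cell type markers. Named genes were every member probe, every kept snoRNA probe of a member, up to 3 genes of each list and line that passed the test with no overlap of the groups, taken by size of change, and the 5 genes of most like pattern. Folds against an undetected group are bounds on the normalized scale, set at the lowest detected value of each array. Alternatives were neqc (offset 16), an equal median of detected probes, median scaling, other detection filters, each line's own arrays, array weights, a replicate block and each array left out. Unscaled signals were added after seeing the data. On simulated data for the MM.1S comparison (19357 probes) the test recovered 31.3% of 67 changes of 0.5 log2 units, 77.6% of 67 changes of 1 and 98.5% of 66 changes of 2, with 5 calls among probes left as they were. The simulation gave every group the same pooled spread and moved few probes. Treated MM.1S arrays had a wider spread, and 71.9% of probes passed in MM.1S, so these rates do not carry over to that comparison. The number of arrays limits the precision.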

Additional observations from a re-analysis of the deposited data

Results flagged for a closer look

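The responses of the lines to PRIMA-1Met differed for member probes by the test of the difference itself (limma adjusted p under 0.05, 2 arrays per group), and these differences are listed here on the log2 scale of the normalized values. Between MM.1S and U266 the difference was 3.68 for SNHG7 probe ILMN_3233205, 2.03 for ZFAS1, 1.80 for GAS5 and 1.44 for SNHG12. It was 1.07 and 0.98 for the SNHG15 probes, 1.01 for the SNHG7 lead probe, 0.94 for SNHG7 probe ILMN_3233229, 0.77 and 0.34 for the second and the brighter SNHG5 probe, and 0.47 for SNHG8.

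Between MM.1S and 8226R5 the difference was 3.66 for SNHG7 probe ILMN_3233205, 2.00 for ZFAS1, 1.85 for SNHG12, 1.48 and 1.31 for the SNHG15 probes and 1.37 for the second SNHG5 probe. It was 1.12 for SNHG8, 0.97 for GAS5, 0.88 for SNHG7 probe ILMN_3233229, 0.38 for the SNHG7 lead probe, -0.29 for the brighter SNHG5 probe and -0.59 for SNHG1. Between U266 and 8226R5 it was 0.65 for SNHG8, 0.60 for the second SNHG5 probe, 0.50 for the second SNHG15 probe, -0.63 for both the brighter SNHG5 probe and the SNHG7 lead probe, and -0.77 for SNHG1. The GAS5 values are not exact: its control arrays and treated U266 arrays were undetected, and the probe was kept only through treated arrays of MM.1S and 8226R5. The dim treated MM.1S arrays enter every MM.1S value. Without scaling between arrays, the positive differences between MM.1S and 8226R5 turned negative, except those of ZFAS1 and SNHG7 probe ILMN_3233205. Those of SNHG12, GAS5 and the second SNHG5 probe did not pass the test then. Part of the differences in the other comparisons turned round as well. The values are given under the dependence on the processing.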

How the results depend on the processing

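Of 1503 values of single probes under an alternative, 1313 kept their side of the threshold and, where called, their direction. Of the rest, 99 lost the call, 40 gained one and 51 turned round. A value turned round when its sign changed and it passed in the main fit or under the alternative. It need not pass under the alternative, as with GAS5 in MM.1S minus 8226R5 with median scaling (-0.017, limma adjusted p = 0.963). Changes of sign between values that passed in neither fit were not counted. Of 216 counts of member probes, 177 stayed within 1.5 times. All turned values came from signals with median scaling or without scaling, where the median of all MM.1S probes was -1.13 and -1.29; the cause was not tested beyond that shift.

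In MM.1S, 3 probes were higher and 7 lower with median scaling and also without scaling. The values there (median scaling, then no scaling) were -1.06 and -1.22 for the SNHG7 lead probe, -0.84 and -1.01 for SNHG7 ILMN_3233229, -0.47 and -0.63 for SNHG8, -1.09 and -1.25 for SNHG15 ILMN_3248773 and -0.92 and -1.08 for SNHG15 ILMN_1898124, and -0.09 for SNHG12 without scaling. In U266 median scaling gave 0 higher, 8 lower and 3 past 2-fold, and no scaling 0, 10 and 3. The values were -0.12 and -0.27 for SNHG5 ILMN_1653794, -0.22 and -0.37 for SNHG8, -0.465 and -0.615 for SNHG12 and -0.34 and -0.49 for ZFAS1. In 8226R5 both gave 8 calls, 6 of them higher.

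For the response in MM.1S minus U266 both gave 4 calls. The turned values were -0.80 and -0.81 for SNHG1, -0.067 and -0.079 for SNHG7 ILMN_3233229 and -0.25 and -0.26 for SNHG8. They were -0.036 and -0.048 for SNHG15 ILMN_3248773 and -0.12 and -0.13 for SNHG15 ILMN_1898124. Of these only the SNHG1 values passed. For MM.1S minus 8226R5 the values were -1.38 and -1.59 for the SNHG7 lead probe, -0.98 and -1.19 for SNHG7 ILMN_3233229, -0.32 and -0.53 for SNHG8, -0.70 and -0.91 for SNHG15 ILMN_3248773, -0.49 and -0.70 for SNHG15 ILMN_1898124 and -0.017 and -0.23 for GAS5, and without scaling -0.068 for SNHG5 ILMN_1653794 and -0.028 for SNHG12. For U266 minus 8226R5 they were -0.14 and -0.34 for SNHG5 ILMN_1653794, -0.07 and -0.27 for SNHG8, -0.665 and -0.86 for SNHG15 ILMN_3248773 and -0.37 and -0.57 for SNHG15 ILMN_1898124, with 10 calls without scaling.

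With no detection filter, U266 had 4 calls (1 higher), 8226R5 2 (0 higher) and U266 minus 8226R5 1. Probes detected on all 12 arrays gave 2 higher in 8226R5. Each line's own arrays gave 1 higher in U266 and 2 in 8226R5. With 1 array left out, calls numbered 11 in MM.1S (10 higher and 1 lower), 5 to 6 in U266 (1 to 2 higher and 4 lower) and 2 in 8226R5 (0 higher and 2 lower), 10 to 11, 10 to 12 and 4 to 6 for the response differences, and 8 to 9, 7 to 8 and 9 between controls. A lone remaining array was assumed to vary like the other groups.

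The replicate numbers did not pair the samples: deviations of same-numbered arrays correlated at 0.0232, 0.0039 and 0.0123 in MM.1S, U266 and 8226R5. With a replicate block the calls were 11 in MM.1S, 6 in U266 (1 higher) and 2 in 8226R5 (0 higher), and 10, 10 and 6 for the response differences. Signal near background limits GAS5 and most of the snoRNA probes.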
